A study of Mus musculus with 9 samples.

Results

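In this comparison, RNA of the mouse trigeminal ganglion (TG) from 6 libraries made after CFA injection was set against 3 libraries made after saline. The CFA libraries of day 3 and day 6 were taken as a single group. Messenger RNA was summed per gene over its transcripts (gene sum, in FPKM, fragments scaled to transcript length and library depth). A gene sum was a member when all 6 CFA libraries lay above, or all 6 lay below, the 3 saline libraries. Of 16110 gene sums tested, 625 were members, 538 on the higher side (3.34%) and 87 on the lower side (0.54%). This rule is a sorting of values and not a test. The genes just inside and just outside it were nearly alike. *Grsf1* entered with 22.78 FPKM in both saline replicate 3 and CFA3D replicate 1, which differed only beyond the digits printed, and *Scn2b* stayed out with 7.919 FPKM in saline replicate 1 against 7.917 FPKM in CFA3D replicate 1.

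The mice were wild-type male C57BL/6 animals aged 8 weeks. They received 10 µl of complete Freund's adjuvant (CFA, 5 mg/ml, killed mycobacteria in oil) or 10 µl of saline into one temporomandibular joint (TMJ) under isoflurane. The 3 saline libraries (saline replicates 1 to 3) and the 3 CFA3D libraries (replicates 1 to 3) are labelled day 3, and the 3 CFA6D libraries (replicates 4 to 6) day 6. No saline library of day 6 was analysed here, so for the CFA6D libraries an effect of the day and of CFA cannot be told apart. Each library pooled TG tissue from 3 mice, and the spread between libraries is a spread between pools.

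The TG holds the cell bodies of the sensory neurons that supply the face, the jaw joint and the meninges, wrapped by satellite glia, together with myelinating and non-myelinating Schwann cells. Nociceptors, the neurons that respond to painful stimuli, fall broadly into peptidergic cells, which release CGRP and substance P, and nonpeptidergic cells, which depend on the receptor Ret. Activity and inflammation are known to change the genes for neurotrophins, secreted peptides and immediate early transcription factors in such neurons. In bulk tissue, fewer cells of a type and less RNA per cell cannot be told apart.

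The step of the lowest FPKM values put about 30000000 to 42200000 read pairs behind each library, with the lowest depth in saline replicates 1 and 2. Some libraries stood apart. Saline replicate 3 carried pituitary hormone RNA (11 genes, summed 10730 FPKM, against 17.87 to 1131 FPKM in the other 8). Saline replicate 2 was highest for skeletal muscle genes (15 genes, summed 267.0 FPKM) and adipocyte genes (8 genes, summed 157.4 FPKM). CFA6D replicate 6 was highest for neutrophil granule genes (14 genes, summed 2970 FPKM against 32.45 to 157.1 FPKM in the other libraries). Without saline replicate 3 and CFA6D replicate 6, 1157 gene sums lay higher and 566 lower, a rule that fewer libraries meet more easily. Neuronal identity was clear, with *Tubb3* (mean 605 FPKM) and *Uchl1* (mean 585 FPKM) well detected in every library.

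Most differences were small. The higher members had a median level of 13.8 FPKM and a median log2 fold change of 0.284, and the lower members 2.58 FPKM and -0.359. All tested gene sums had a median level of 5.84 FPKM. Of the 625 members, 554 differed by less than 0.5 and 15 by at least 1 on the log2(FPKM + 0.1) scale on which all fold changes here are given. Under 0.5 lay 92.0% of the higher and 67.8% of the lower members, against 95.3% of all tested gene sums. In the limma fit of all 9 libraries no mRNA gene sum had an adjusted p under 0.05. The smallest was 0.2047, and 1319 had an unadjusted p under 0.05, 1091 higher (6.77%) and 228 lower (1.42%). At a log2 fold change of at least 1 as well, 14 were called higher (0.0869%) and 33 lower (0.205%). Gene sums are therefore described below as higher or lower, with the adjusted p of limma (Benjamini-Hochberg) where one is given.

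**Figure D1:**
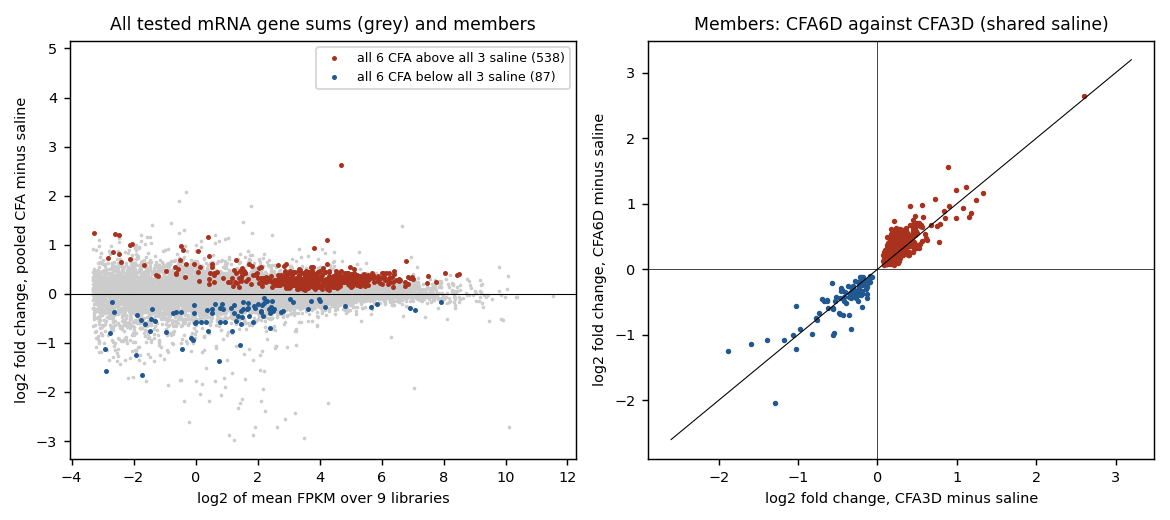
Left, the log2 fold change of pooled CFA minus saline (y axis) against the log2 of mean FPKM (x axis) for all tested mRNA gene sums (grey), with the 538 higher members in red and the 87 lower in blue. Right, the log2 fold change of each member on day 6 (y axis) and day 3 (x axis), both against the same saline libraries, with a line of equality; most members lie within 0.5 of 0.

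The balance of higher to lower members depended on how libraries were put on a common scale. With the values as deposited, 86.1% of members lay on the higher side. After each library was shifted to the same median there were 326 higher and 200 lower (62% higher), and 255 of the 538 and 69 of the 87 remained. After quantile normalization there were 318 and 217 (59.4% higher), and 233 and 56 remained. The fold change over all tested genes had a median of 0.0388. Leaving out single saline libraries raised both counts. Without saline replicate 1 there were 1971 higher and 218 lower, and without saline replicate 2 there were 725 and 482.

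**Figure D2:**
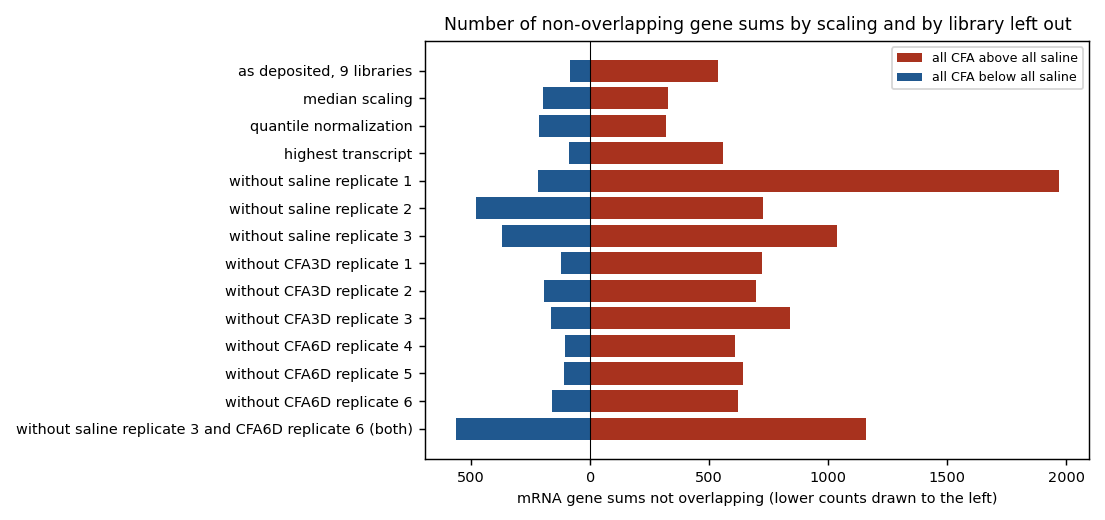
Number of mRNA gene sums with all CFA libraries above (red, to the right) or all below (blue, to the left) the saline libraries, by scaling and by library left out. With all 9 libraries the counts were 538 and 87, and they rose to 1971 and 218 without saline replicate 1.

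Of the named mRNA gene sums, *Nptx2* and *Vgf* had the widest gaps between the nearest CFA and saline libraries. *Nptx2* (chr5:144545902-144557478, GRCm38, plus strand) encodes neuronal pentraxin 2, an activity-regulated secreted protein that clusters glutamate receptors at synapses. It stood at 8.90, 9.09 and 8.34 FPKM in saline, 14.5, 18.0 and 17.3 FPKM on CFA3D, and 21.8, 16.0 and 14.5 FPKM on CFA6D. The lowest CFA library was thus well above the highest saline library, and both days were alike. Its mean was 8.78 ± 0.389 FPKM (SD, n = 3) in saline and 17.0 ± 2.73 FPKM (SD, n = 6) in CFA, a log2 fold change of 0.93 ± 0.13 (SE, adjusted p in limma 0.2047).

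The other members of this family lay on the same side. *Nptx1*, neuronal pentraxin 1, stood at 13.7, 13.9 and 13.9 FPKM in saline, 17.2, 21.1 and 20.9 FPKM on CFA3D and 26.3, 20.1 and 22.4 FPKM on CFA6D (log2 fold change 0.61). The saline libraries were almost equal and every CFA library was above them. *Nptxr*, which encodes the membrane-bound pentraxin receptor, was at 9.16 to 12.7 FPKM in saline and 13.2 to 18.7 FPKM in CFA (log2 fold change 0.47). The family was put together after these values had been seen, and all 3 genes also separated under median scaling.

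*Vgf* (chr5:137026392-137033351, plus strand) encodes a secreted neuropeptide precursor that neuronal activity induces. It had 8.64, 11.2 and 12.3 FPKM in saline, 16.2, 27.0 and 21.4 FPKM on CFA3D, and 29.2, 20.4 and 25.3 FPKM on CFA6D. The mean was 10.7 ± 1.88 FPKM (SD, n = 3) in saline and 23.2 ± 4.80 FPKM (SD, n = 6) in CFA. The log2 fold change was 1.10 ± 0.18 (SE, adjusted p in limma 0.2384). Of 10 granin and prohormone-processing genes tested, *Vgf* was the only member, against 3.34% higher members over all gene sums. The median log2 fold change of the 10 was 0.03 (-0.02 after quantile normalization), against 0.04 over all gene sums. This set was chosen after values had been seen.

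*Bdnf* (chr2:109674700-109727007, plus strand) encodes brain-derived neurotrophic factor, which nociceptors release onto second-order neurons. It was at 2.64, 2.22 and 2.34 FPKM in saline, 3.36, 4.48 and 4.88 FPKM on CFA3D, and 3.598, 3.16 and 3.00 FPKM on CFA6D. The day 3 libraries reached higher than those of day 6, with log2 fold changes of 0.78 and 0.42 against saline (unadjusted p in limma for the difference between days 0.0506). Over both days it was 0.60 ± 0.14 (SE, adjusted p in limma 0.2979). The most abundant transcript of *Bdnf*, ENSMUST00000111045, had a log2 fold change of 0.24 without separating. It was at 1.15 to 1.33 FPKM in saline, 1.355 to 2.356 FPKM on CFA3D and 1.05 to 1.28 FPKM on CFA6D. ENSMUST00000111050 had a log2 fold change of 0.20 without separating. It was at 0.335 to 0.512, 0.526 to 0.846 and 0.358 to 0.486 FPKM in these groups. Both thus lay above saline on CFA3D only. ENSMUST00000053317 separated (0.113 to 0.275 FPKM in saline and 0.412 to 1.37 FPKM in CFA). *Ngfr*, the p75 neurotrophin receptor that binds all neurotrophins, was at 61.0 to 75.9 FPKM in saline and 83.1 to 107.7 FPKM in CFA (log2 fold change 0.47). Of 8 neurotrophin ligands and receptors tested, a set chosen after seeing values, these 2 were members, against 3.34% of all gene sums.

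**Figure D3:**
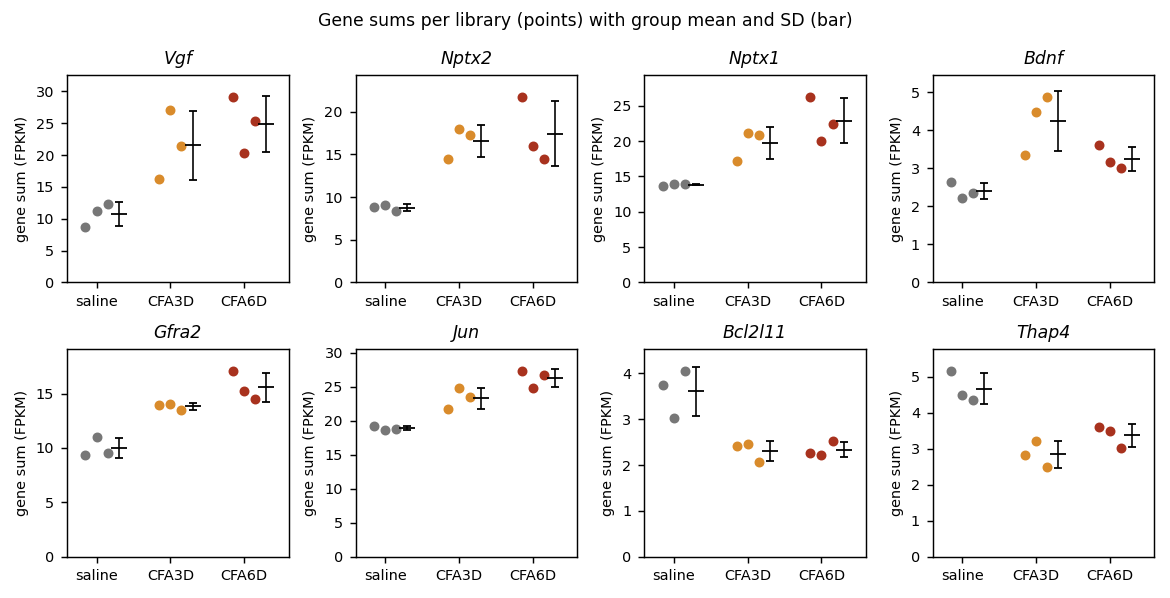
Gene sums (y axis, FPKM, from 0) of 8 members in each library, grouped as saline, CFA3D and CFA6D (x axis); points are libraries, bars are group means with SD (n = 3). For *Vgf*, *Nptx2*, *Nptx1*, *Bdnf*, *Gfra2* and *Jun* all CFA points lie above saline, and for *Bcl2l11* and *Thap4* all lie below.

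Receptors of the nonpeptidergic nociceptors were also among the higher members. *Gfra2* (chr14:70890120-70979838, plus strand) encodes the coreceptor for neurturin, a GDNF family ligand that signals through Ret. It was at 9.35, 11.0 and 9.55 FPKM in saline, 13.97, 14.1 and 13.5 FPKM on CFA3D and 17.1, 15.2 and 14.5 FPKM on CFA6D (log2 fold change 0.55 ± 0.08, SE, adjusted p in limma 0.2047). *Ret*, the signalling receptor itself, had 61.3 to 76.2 FPKM in saline and 84.6 to 110.2 FPKM in CFA (log2 fold change 0.40). For both genes the groups did not meet, and CFA6D replicate 4 was highest.

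*Lpar3*, a lysophosphatidic acid receptor, was at 4.65 to 6.46 FPKM in saline and 6.66 to 7.96 FPKM in CFA, and *Lpar5* at 1.78 to 2.09 and 2.21 to 3.03 FPKM. *Mrgprd*, the Mas-related receptor that marks nonpeptidergic cells, sat at the edge of the rule, since 11.54 FPKM was listed in saline replicate 1 and in CFA3D replicate 2 to 4 digits. Of 12 nonpeptidergic markers tested, 5 were members (*Gfra2*, *Lpar3*, *Lpar5*, *Mrgprd* and *Ret*), and 3 were after median scaling. Over all gene sums 3.34% were higher members. An unadjusted p under 0.05 on the higher side was found for 7 of the 12, against 6.77% of all gene sums, and the median log2 fold change was 0.31. *P2rx3*, an ATP-gated channel of the same cells, had a log2 fold change of 0.09, and *Otoa* one of -0.20. Of 9 peptidergic markers none was a member and 4 had such a p (median 0.25), and of 8 markers of large myelinated neurons none was a member (median 0.18). These 3 marker sets were chosen after member values had been seen, and the difference between them was not tested.

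Beside these neuronal genes stand the general neuron markers. Of 14 markers, all 14 had a positive log2 fold change, 5 had an unadjusted p under 0.05, and 1, *Pou4f1*, was a member. Over all gene sums, 6.77% had such a p on the higher side and 3.34% were higher members. The median of the 14 was 0.22 as deposited, 0.18 after median scaling and 0.20 after quantile normalization. The summed level was 2455 to 3003 FPKM in saline, lowest in saline replicate 3, and 2808 to 3701 FPKM in CFA. Satellite glia markers had a median of -0.09 (12 genes, 11 negative), Schwann cell myelin genes 0.04 (12 genes, -0.03 after quantile normalization) and macrophage markers -0.12 (17 genes), with no member in any of them. The part of neuronal RNA content in the neuronal members was not tested.

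Transcription factors of sensory neurons were among the members. *Prdm12*, a nociceptor factor whose loss abolishes pain sensation, was at 18.3, 18.9 and 17.4 FPKM in saline, 22.4, 24.7 and 23.1 FPKM on CFA3D, and 29.4, 25.8 and 27.2 FPKM on CFA6D. The groups did not meet, and day 6 lay above day 3 (log2 fold change 0.47, adjusted p in limma 0.2047). *Pou4f1* (Brn3a) had 14.1 to 14.97 FPKM in saline and 16.7 to 23.1 FPKM in CFA (log2 fold change 0.44). *Tlx3* had 10.5 to 13.1 and 13.4 to 16.9 FPKM, and *Klf7* 22.7 to 25.2 and 26.2 to 33.1 FPKM. *Pou4f1* and *Tlx3* were no longer separated after median scaling, whereas *Prdm12* and *Klf7* were. In the set of 12 such factors, chosen after seeing values, 5 were members, *Prdm8* being the other one, against 3.34% of all gene sums. The median log2 fold change of the 12 was 0.30.

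*Jun* (chr4:95049034-95052222, minus strand), an AP-1 subunit and immediate early gene that injured neurons also express, was at 19.2, 18.7 and 18.8 FPKM in saline, 21.7, 24.8 and 23.5 FPKM on CFA3D, and 27.3, 24.8 and 26.7 FPKM on CFA6D. The 3 saline values lay within 0.6 FPKM of each other, below every CFA value (log2 fold change 0.39 ± 0.06, SE, adjusted p in limma 0.2384). Of 18 immediate early genes it was the only member, while 16 had a positive log2 fold change and 8 an unadjusted p under 0.05 (median 0.37), against 3.34% higher members and 6.77% with such a p on the higher side over all gene sums. The pooled log2 fold change of *Egr1* was 0.59, of *Nr4a1* 0.57, of *Junb* 0.39 and of *Fos* 0.24 without separating. The 18 genes summed to 78.44 to 81.77 FPKM in saline, 79.58 to 101.0 FPKM on CFA3D and 115.9 to 127.5 FPKM on CFA6D. The CFA3D sums thus overlapped saline, and CFA6D had no saline library of its day. Of 18 glucocorticoid target genes none was a member and 6 had an unadjusted p under 0.05 on the higher side (median 0.40). *Atf3*, a nerve injury factor, had 0.36 without separating, and the 15 nerve injury genes had a median of -0.07.

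**Figure D4:**
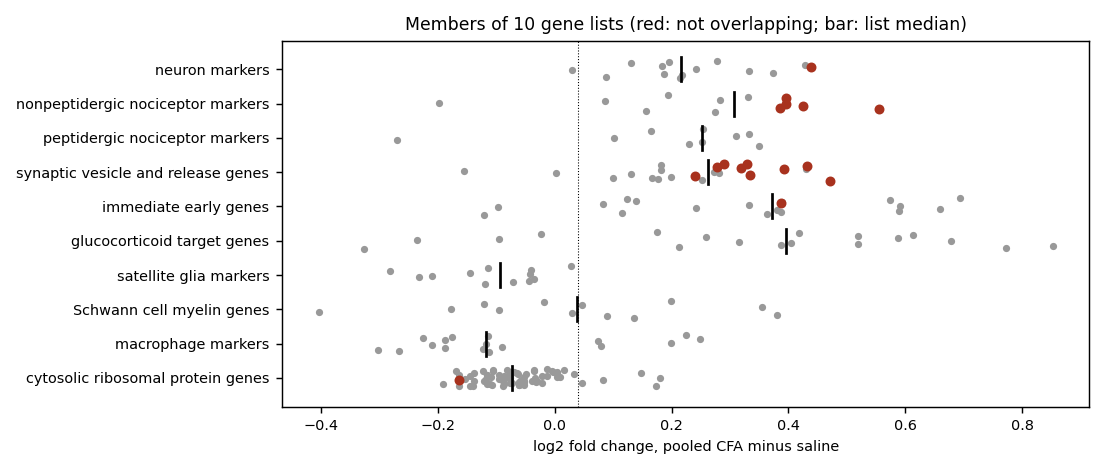
Log2 fold change of pooled CFA minus saline (x axis) for the members of 10 gene lists (y axis), each point a gene sum, red where the groups did not overlap; the bar is the list median and the dotted line the median of all tested gene sums, 0.0388. The neuronal lists lie to the right, with neuron markers at a median of 0.22, and glia, macrophage and ribosomal lists near or left of the line.

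Some genes of vesicle release were higher members. *Syngr3* was at 19.1 to 20.3 FPKM in saline and 23.6 to 31.3 FPKM in CFA (log2 fold change 0.43), *Sv2c* at 38.6 to 49.2 and 51.3 to 68.5 FPKM, and *Syn2*, synapsin 2, at 17.0 to 18.4 and 19.6 to 24.8 FPKM. *Vamp2*, the vesicle SNARE, had 61.0 to 68.9 FPKM in saline, 70.6 to 76.3 FPKM on CFA3D and 86.1 to 92.8 FPKM on CFA6D. *Bsn*, bassoon of the active zone, had 7.37 to 8.51, 8.77 to 9.65 and 12.1 to 14.8 FPKM in these groups. For *Vamp2* and *Bsn* the day 6 libraries lay above those of day 3 without overlap (p for the difference 0.00506 and 0.000367, unadjusted). Of 22 release genes, gathered after the values were seen, 9 were members, against 3.34% of all gene sums, but after median scaling 3 were. *Snap25* had a log2 fold change of 0.13 and *Stx1a* 0.00 without separating.

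Ion channels gave further members. Of 85 potassium channel genes tested, 8 were members, all higher (among them *Kcnd1*, *Kcng3*, *Kcnk12*, *Kcnn1*, *Kcnq5*, *Kcnt1* and *Kcnv1*), against 3.34% of all gene sums, and 3 of these remained after median scaling, *Kcnn1*, *Kcnq5* and *Kcnt1*. The median of the 85 was 0.09, and this list was gathered after the values were seen. *Kcnq5*, which carries a slow M-type current, was at 0.675 to 0.952 FPKM in saline and 1.03 to 1.40 FPKM in CFA (log2 fold change 0.54). *Asic2*, an acid-sensing channel, was at 10.4 to 11.0 and 12.6 to 14.7 FPKM (log2 fold change 0.31), and *Cacnb3*, a calcium channel subunit, at 36.3 to 41.2 and 46.8 to 62.1 FPKM (0.38). Of 29 pain channels and receptors on a wider list, *Mrgprd* was the only member. On the higher side 6 had an unadjusted p under 0.05, against 6.77% of all gene sums, and the median was 0.17.

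Some signalling genes were also higher members. The 14-3-3 adaptor *Ywhag* was at 289.5 to 309.2 FPKM in saline and 345.6 to 479.0 FPKM in CFA, *Ywhab* at 64.4 to 71.5 and 75.6 to 83.0 FPKM, and *Ywhaz* at 148.0 to 173.1 and 181.8 to 194.3 FPKM. These 3 of 6 genes of the family, against 3.34% of all gene sums on the higher side, also separated after median scaling. *Prkaca*, the catalytic subunit of protein kinase A, had 39.5 to 44.0 and 46.8 to 61.1 FPKM (log2 fold change 0.36). *Gnaq*, a G protein subunit that couples to phospholipase C, had 25.5 to 28.2 and 30.7 to 43.3 FPKM. *Ptgir*, the prostacyclin receptor of nociceptors, had 8.92 to 10.7 and 11.95 to 14.6 FPKM (log2 fold change 0.44). These genes were picked from the members, and the 14-3-3 family was put together, after their values were seen.

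*Fez1* (chr9:36821864-36878924, plus strand), an adaptor for kinesin transport in axons, had a wide gap, with 61.2 to 63.5 FPKM in saline and 76.7 to 92.3 FPKM in CFA (log2 fold change 0.43 ± 0.07, SE, adjusted p in limma 0.2384). Its most abundant transcript, ENSMUST00000034630, had a log2 fold change of 0.07 without separating. The shorter ENSMUST00000163816 was at 1.57 to 2.65 FPKM in saline and 4.80 to 6.21 FPKM on CFA3D. On CFA6D it was at 39.6, 34.8 and 5.13 FPKM. *Rtn4rl2*, a Nogo receptor homolog, was at 5.26, 5.49 and 5.49 FPKM in saline and 7.12 to 11.6 FPKM in CFA, the highest in CFA6D replicate 4. *Zfp703* was at 4.86 to 5.97 and 6.15 to 9.86 FPKM and *Setd6*, a lysine methyltransferase, at 2.05 to 2.30 and 2.82 to 3.59 FPKM. The most abundant transcript of *Setd6* had a log2 fold change of 0.04 without separating. All 4 gene sums also separated after median scaling.

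Some large differences rested on single libraries. *Scd2*, a stearoyl-CoA desaturase, was at 66.2 to 79.0 FPKM in saline and at 85.4 to 92.1 FPKM in 4 CFA libraries, but at 214.4 FPKM in CFA3D replicate 3 and 213.1 FPKM in CFA6D replicate 6. *Gm13889* had the largest log2 fold change, 2.63, because saline replicate 2 was at 0.253 FPKM beside 24.0 and 15.8 FPKM in the other saline libraries and 30.6 to 34.0 FPKM in CFA. Its transcript ENSMUST00000148314 was at 23.7 FPKM in saline replicate 1, 0.00828 and 0.00452 FPKM in the other saline libraries and 30.3 to 33.8 FPKM in CFA. Saline replicate 3 carried its value in ENSMUST00000099689 instead (15.8 FPKM, against 0.198 to 0.349 FPKM in the other libraries). *Cenpa* was at 0.639 to 0.967 FPKM in saline and 1.06 to 1.46 FPKM in 5 CFA libraries, with 3.34 FPKM in CFA6D replicate 6. *Sphk1*, sphingosine kinase 1, was at 1.352 to 1.998 and 1.999 to 4.659 FPKM, with nearly no gap. *Smr2* (0.366 to 0.899 and 0.973 to 1.48 FPKM), *Serpina3i*, a serine protease inhibitor (0.366 to 0.956 and 1.27 to 2.12 FPKM), and *Muc2* (0.887 to 1.20 and 1.24 to 1.92 FPKM) were low in all libraries. The most abundant transcript of *Muc2* had a log2 fold change of -0.14.

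Of the genes the study names as changed, a choice made on these libraries and so no independent evidence, 62 were tested and 5 were members, all higher, against 3.34% of all gene sums. Besides *Bdnf* these were *Ctbp1* (27.1 to 29.6 FPKM in saline and 33.1 to 44.4 FPKM in CFA), *Sbf1* (25.2 to 27.7 and 29.4 to 37.2 FPKM), *Eya3* (11.4 to 12.7 and 13.3 to 15.5 FPKM) and *Rgs3* (20.6 to 21.8 and 22.7 to 25.9 FPKM). *Eya3* and *Rgs3* did not separate after median scaling. The study's supplement lists *Sbf1* and *Ctbp1* as absent in saline, unlike these gene sums, so its measure was not the gene sum. The count of members is therefore no check of the study's calls. Its listed *Tnpo3*, *Sbf1* and *Trappc1* had single transcripts that passed adjustment here (below). The most abundant transcript of *Ctbp1* had a log2 fold change of -0.66, against 0.39 for the gene sum. Of the 36 mRNA lists written first, 25 held no member. Of 16 clock genes *Bhlhe41* (5.50 to 7.23 FPKM in saline and 7.36 to 8.47 FPKM in CFA) and *Npas2* (0.886 to 0.947 and 0.953 to 1.41 FPKM) were members, neither of which separated after median scaling. The most abundant transcript of *Npas2* had a log2 fold change of -0.06. Inflammatory lists had no member, against 3.34% higher and 0.54% lower members over all gene sums. They were 16 cytokines and chemokines (median 0.10), 9 MHC class II genes (-0.07), 15 NF-kappaB pathway genes (-0.01) and 16 interferon response genes (0.29). On the higher side, 3 of the NF-kappaB genes and 1 of the interferon genes had an unadjusted p under 0.05. Over all gene sums it was 6.77%, and none of the cytokine and MHC class II genes had such a p.

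The lower members were fewer and lower in level. *Bcl2l11* (chr2:128126038-128162547, plus strand) encodes Bim, a BH3-only protein that promotes apoptosis. It was at 3.75, 3.02 and 4.05 FPKM in saline, 2.41, 2.45 and 2.06 FPKM on CFA3D, and 2.26, 2.23 and 2.52 FPKM on CFA6D. Both days were alike and below every saline library (log2 fold change -0.61 ± 0.13, SE, adjusted p in limma 0.2901). Of its 3 most abundant transcripts, ENSMUST00000110341 was at 1.30 to 1.40 FPKM in saline and 0.470 to 0.866 FPKM in CFA, and the other 2 overlapped. Of 17 apoptosis genes it was the only member, against 0.54% lower members over all gene sums, and the median was 0.14.

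*Thap4* (chr1:93701935-93754864, minus strand) had 4.35 to 5.15 FPKM in saline and 2.48 to 3.61 FPKM in CFA (log2 fold change -0.58 ± 0.12, SE, adjusted p in limma 0.2767). *Isoc2b* (2.96 to 3.32 and 2.03 to 2.47 FPKM), *1810009A15Rik* (5.33 to 5.80 and 3.24 to 4.67 FPKM) and *Hsd3b7*, an enzyme of bile acid synthesis (4.92 to 5.15 and 3.37 to 4.28 FPKM), had tight saline values and wide gaps. *Rnf135*, *Gpr21* and *Ssc4d* lay 0.30 to 0.39 lower on the log2 scale. All of these separated also after median scaling. The gene sums of *Isoc2b* and *Ssc4d* did not follow their most abundant transcripts, which had log2 fold changes of 0.03 and 0.47 without separating. In *Isoc2b* the retained intron transcript ENSMUST00000208173 was at 0.510 to 0.674 FPKM in saline and 0.0605 to 0.253 FPKM in CFA. In *Gpr21* the coding transcript ENSMUST00000065441 had a log2 fold change of 1.17 without separating. The processed transcript ENSMUST00000159737 was at 1.34 to 1.53 FPKM in saline and 0 to 1.21 FPKM in CFA. It was listed at 0 in CFA3D replicates 1 and 2 and CFA6D replicate 6, where the coding transcript was at 1.333, 1.096 and 1.106 FPKM. In the other CFA libraries the coding transcript was at 0 to 0.131 FPKM. Which of them made up most of the gene sum thus differed between CFA libraries. *Grik2*, a kainate receptor subunit, was at 2.98 to 3.35 and 2.14 to 2.74 FPKM, and *Neto2*, its auxiliary protein, at 1.87 to 2.05 and 1.31 to 1.81 FPKM.

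Some lower members had a wide spread in saline. *Apoc1*, an apolipoprotein, was at 1.84, 5.58 and 1.80 FPKM in saline, highest in replicate 2, and at 0.572 to 1.64 FPKM in CFA. *Coq8a*, a kinase-like protein of ubiquinone synthesis, was at 6.01, 9.85 and 5.86 FPKM in saline and 3.43 to 5.81 FPKM in CFA. *Cnnm2*, a magnesium transporter, spread from 2.20 to 6.52 FPKM in saline and from 1.62 to 2.10 FPKM in CFA. *1700064H15Rik* (2.52 to 4.07 and 1.30 to 2.10 FPKM), *Hamp2* (1.23 to 1.91 and 0.663 to 1.20 FPKM) and *Hddc3* (2.88 to 3.84 and 2.10 to 2.82 FPKM) were lower members with smaller differences than *Apoc1*. Among the saline libraries, replicate 2 was highest for *Apoc1*, *Coq8a*, *1700064H15Rik* and *Hamp2*, and replicate 1 for *Cnnm2* and *Hddc3*. Saline replicate 2 was also the library with the most muscle and adipocyte RNA (above), and the part of that RNA in any of these differences was not tested. *Pln*, phospholamban, was at 1.30 to 2.06 FPKM in saline and 0.541 to 1.30 FPKM in CFA, *Pm20d2* at 1.28 to 1.35 and 0.680 to 1.15 FPKM, and *Smagp* at 1.56 to 2.06 and 0.604 to 1.44 FPKM. *Ccdc17* (2.04 to 2.79 and 1.16 to 1.92 FPKM) was lower as well.

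*Myh7*, a slow muscle myosin, was at 0.178 to 0.373 FPKM in saline and 0.0238 to 0.128 FPKM in CFA. It was the only member of 15 skeletal muscle genes, against 0.54% lower members over all gene sums, and their median log2 fold change was -2.19. Their summed level was 60.93, 267.0 and 9.894 FPKM in the saline libraries and 3.888 to 124.2 FPKM in CFA, so the groups overlapped. The part of muscle tissue in the lower members was not tested. At high levels, the ribosomal *Rpl36* (243.7 to 274.6 and 223.4 to 243.3 FPKM) and 2 genes of mitochondrial complexes, *Atp5o* (125.8 to 153.6 and 102.1 to 122.8 FPKM) and *Ndufa13* (52.5 to 60.2 and 43.3 to 50.6 FPKM), were lower. Of 73 cytosolic ribosomal genes 62 were negative, with a median of -0.07. Of 96 nuclear genes of mitochondrial complexes, a list gathered after the values were seen, 66 were negative, with a median of -0.05. Of the 20 nuclear oxidative phosphorylation genes listed first none was a member, and their median was -0.04.

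The days were also compared within the members. Between CFA6D and CFA3D, 72 of the 538 higher members (13.4%) and 4 of the 87 lower members (4.6%) had an unadjusted p under 0.05, against 7.41% of all tested gene sums. All 72 were higher on day 6 and all 4 were lower on day 6, whereas of the 1193 among all tested gene sums 494 were higher and 699 lower. The difference between these shares was not tested. The median log2 fold change of the higher members was 0.226 on CFA3D and 0.331 on CFA6D. Both days share the saline libraries, so these medians are not independent. *Tmem158* had 10.1 to 11.0 FPKM in saline, 13.1 to 14.9 FPKM on CFA3D and 15.2 to 17.8 FPKM on CFA6D (p between days 0.0153).

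Promoters of the members were read from RefSeq (GRCm38.p6) to see whether they share letters that known factors bind. Promoters were found for 411 of the 538 higher and 69 of the 87 lower members. The windows ran from 250 bases before to 50 bases after a start, and both strands were searched. The cAMP response element TGACGTCA was in 1.83% of the promoters of higher members, 2.33% of the lower and 2.71% of all tested genes. The E-box CACGTG was in 8.61%, 9.3% and 9.06%, and the AP-1 motif TGAGTCA in 4.58%, 5.81% and 3.99%. The NF-kappaB motif was in 0.366%, 0.0% and 0.19%. The CCAAT box was in 33.5%, 41.9% and 37.4%, and the glucocorticoid response element in none of the members' promoters. *Vgf*, *Nptx1*, *Nptx2* and *Gfra2* were not matched. The members were thus near the share of all genes for each motif. The 250 bases before a start are shown for a start of *Fez1* whose E-box (capitals) begins 92 bases before it (chr9:36832490-36832739, plus strand), and for *Smr2*, whose AP-1 motif, read on the other strand, begins 213 bases before it (chr5:88086306-88086555, plus strand):
Fez1: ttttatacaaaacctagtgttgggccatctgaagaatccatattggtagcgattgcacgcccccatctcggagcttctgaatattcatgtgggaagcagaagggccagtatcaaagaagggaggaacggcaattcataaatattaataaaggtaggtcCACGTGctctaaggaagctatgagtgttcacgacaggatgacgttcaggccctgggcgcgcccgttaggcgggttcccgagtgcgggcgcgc
Smr2: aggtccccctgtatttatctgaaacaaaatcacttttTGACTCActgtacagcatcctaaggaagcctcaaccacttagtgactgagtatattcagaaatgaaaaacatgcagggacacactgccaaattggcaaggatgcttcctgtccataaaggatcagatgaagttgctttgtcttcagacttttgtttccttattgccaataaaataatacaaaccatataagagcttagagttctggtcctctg

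Single transcripts gave the differences that passed adjustment. Of 66562 mRNA transcripts, 1259 lay higher in all CFA libraries (1.89%) and 667 lower (1.0%). In limma 719 were called higher (1.08%) and 518 lower (0.778%), and 16 had an adjusted p under 0.05. Only 23.0% of the non-overlapping transcripts with a tested gene sum had a gene sum that separated in the same direction. In 95.7% the gene sum differed by less than 0.5, which is near the 95.3% of all tested gene sums. In 82 genes, transcripts separated in both directions. The FPKM of a transcript depends on how the authors' software shared reads between overlapping isoforms.

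In *Lrch1*, which encodes a leucine-rich repeat protein, coding isoforms differed in opposite directions in FPKM. ENSMUST00000228252 fell from 6.09, 4.28 and 3.72 FPKM in saline to 0.244 to 0.636 FPKM in CFA (log2 fold change -3.15, adjusted p in limma 0.00874). It has 10 bases and 0 exon junctions found in no other annotated transcript, so its FPKM rests largely on how reads were shared. ENSMUST00000088970 rose from 0.634, 0.615 and 1.09 FPKM to 2.89 to 3.78 FPKM (log2 fold change 2.06, adjusted p in limma 0.0134). The annotated isoforms differ by an exon of 81 bases (27 codons, so the frame is kept, chr14:74794911-74794991, minus strand) that only the second holds. In all, the second has 1579 bases that the first lacks, and the first 10 bases that the second lacks. Among the transcripts that span it, those with the exon made up 7.46%, 16.2% and 25.8% of the FPKM in saline, 67.7% to 73.5% on CFA3D and 57.7% to 74.8% on CFA6D. Every CFA library was thus far above the highest saline library, saline replicate 3. The gene sum was 7.12 to 9.09 FPKM in saline and 5.41 to 6.95 FPKM in CFA, itself a lower member (log2 fold change -0.38). The exon reads:
Lrch1 exon: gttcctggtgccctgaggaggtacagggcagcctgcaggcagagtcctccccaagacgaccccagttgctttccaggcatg

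In *Rsbn1*, which encodes a nuclear protein, FPKM was higher for an isoform annotated as a target of nonsense-mediated decay. ENSMUST00000151927 rose from 0.224, 0.0378 and 0.0952 FPKM to 1.79 to 2.94 FPKM (log2 fold change 3.55, adjusted p in limma 0.00633), or from 1.76% to 9.04% of the gene in saline to 52.5% to 71.3% in CFA. The full coding transcript ENSMUST00000068879 was at 1.57 to 1.75 FPKM in saline and 0.9497 to 1.31 FPKM in CFA. The isoform carries an exon of 118 bases (chr3:103930037-103930154, plus strand) that no other annotated transcript has, and its reading frame ends at the first codon of that exon. In *Rbm6*, which encodes an RNA-binding splicing factor, the short coding ENSMUST00000194436 rose from 0.01004, 0.0805 and 0.0244 FPKM to 2.76 to 3.51 FPKM (log2 fold change 4.59, adjusted p in limma 0.000102). It made up 0.0572% to 0.470% of the gene in saline and 13.4% to 17.9% in CFA. Without it the gene's FPKM was 17.1 to 18.1 in saline and 15.5 to 18.0 in CFA, so without this isoform the groups overlapped. In both, 30 coding bases before the stop codon (capitals) and the 9 bases after it are shown. The exon junction falls after printed base 30 in *Rsbn1* and after base 31, within the stop codon, in *Rbm6*:
Rsbn1: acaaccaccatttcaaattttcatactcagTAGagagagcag
Rbm6: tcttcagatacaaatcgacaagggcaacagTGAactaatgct

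*Klhdc4*, a kelch domain protein, was a higher member whose difference lay in a retained intron transcript. ENSMUST00000174206 rose from 0.195, 0.254 and 0.138 FPKM to 1.97 to 3.94 FPKM (log2 fold change 3.22, adjusted p in limma 0.00215). It has 0 bases and 0 exon junctions found in no other annotated transcript, so its FPKM rests on how reads were shared. The rest of the gene was at 3.85 to 4.94 FPKM in saline and 4.003 to 4.91 FPKM in CFA, without separating. *Tnpo3*, *Sbf1* and *Trappc1* also had single transcripts past an adjusted p of 0.05 in limma, with log2 fold changes of their gene sums of -0.11, 0.27 and 0.08. The *Tnpo3* transcript, ENSMUST00000115251, likewise has 0 bases and 0 exon junctions of its own. *Sbf1* ENSMUST00000175778, listed at 0 in saline, was at 1.95 to 4.70 FPKM in CFA. *Trappc1* ENSMUST00000108662 was at 2.48 to 3.28 FPKM in saline and listed at 0 in all CFA libraries. The CFA3D and CFA6D libraries overlapped in all of these isoforms but that of *Sbf1*, which was higher on CFA3D. Whether library preparation differed between the saline and CFA libraries is not given in the sources used here.

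**Figure D5:**
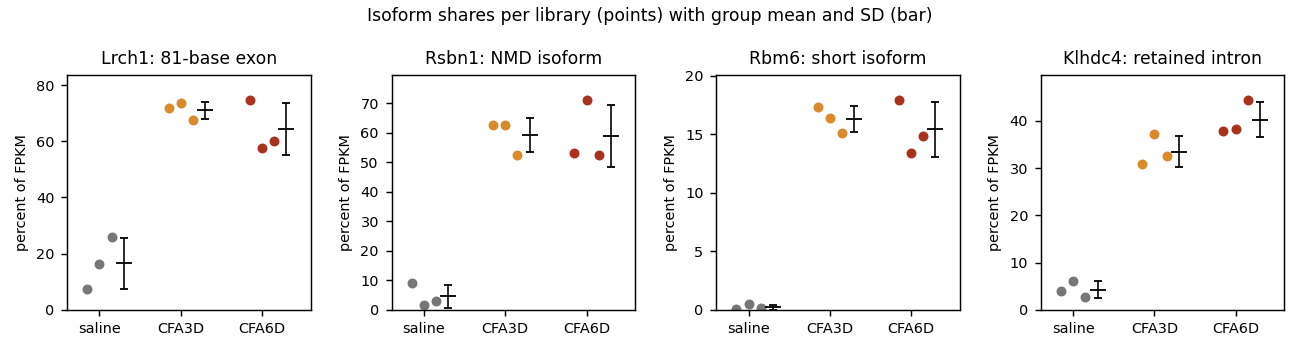
Percent of FPKM (y axis, from 0) in each library by group (x axis) for the *Lrch1* transcripts with the 81-base exon, among transcripts spanning it, and for 1 isoform of *Rsbn1*, *Rbm6* and *Klhdc4*, as percent of the gene; points are libraries, bars are group means with SD (n = 3). The saline points lie at 25.8% or less in *Lrch1* and at 9.04% or less in the others, below all CFA points of the same gene.

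Noncoding RNAs separated about equally in both directions. Of 4233 lncRNA gene sums, 52 lay higher (1.23%) and 51 lower (1.2%). In limma 232 had an unadjusted p under 0.05, and after adjustment none did. Of these 103, 30 had a mean of at least 1 FPKM. Those with the largest differences were low. On the higher side they were *AC122818.1* (0 to 0.0813 FPKM in saline and 0.163 to 0.576 FPKM in CFA), *Gm48684*, *Gm38326*, *Gm44226* and *Gm36208*, with log2 fold changes of 1.00 to 1.57, and on the lower side *Gm17115*, *Gm47879*, *Gm42413* (0.646 to 0.837 and 0.123 to 0.374 FPKM), *Gm41231* and *Gm31266*, with -1.35 to -1.11. Of 13 tested lncRNAs that the study names, *AI847159* was the only member (0.0875 to 0.130 and 0.157 to 0.550 FPKM).

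Of 7753 other noncoding gene sums, 90 lay higher (1.16%) and 98 lower (1.26%). The small nucleolar RNA *Gm24926*, listed at 0 in saline, was at 0.150 to 0.720 FPKM in CFA. *Gm14581*, *Gm23713*, *Gm15565* and *Gm24610* were also higher and *Gm17383*, *Ighv8-8*, *Gm23918*, *Gm32886* and *Traj15* lower, all with an adjusted p in limma of 0.48 or more. *Gm24926* (chr7:59477493-59477571, minus strand), *Gm23713* and *Traj15* are loci much shorter than a kilobase. A read pair is worth more FPKM there, so these values rest on few reads. The one gene sum with an adjusted p under 0.05, *Mir3101* (0.0167), was no member. It was at 0.0273 to 0.0439 FPKM in saline and 0.0204 to 0.0226 FPKM on CFA3D, and rose to 3.04 to 5.27 FPKM on CFA6D. The pooled log2 fold change was 2.37, with -0.16 on CFA3D and 4.90 on CFA6D. The hairpin lies within *Rab4b* on the same strand (chr7:27176006-27176093, minus strand), whose gene sum overlapped between groups (log2 fold change 0.08). This hairpin locus is likewise much shorter than a kilobase, so its values rest on few reads. The values are those of the locus in total RNA, and mature miRNAs were not measured. Their RefSeq sequences (GRCm38.p6) are given with the seed (bases 2 to 8) in capitals:
miR-3101-3p: uAGCUUUGguggauggucuuu
miR-3101-5p: gGUACCAUugacuaaagcuag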

How the data were processed

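Total RNA of 9 TG libraries was depleted of ribosomal RNA and prepared with a stranded kit. Per the paper's methods, reads were trimmed with Trimmomatic and mapped to GRCm38 in CLC Genomics Workbench. The submitters' processing notes name Bowtie 0.12.2 and mm8 instead, and which gave the values is not given in the sources used here. The deposited files hold FPKM per transcript as computed by the authors, in 3 tables (mRNA, lncRNA and other noncoding RNA), with no counts. Depth was estimated from the step of the lowest values. No column was left out.

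FPKM was summed per gene by transcript ID (GENCODE M21). Gene sums whose mean reached 0.1 FPKM entered the fit, on log2(FPKM + 0.1), with limma 3.58.1 with a mean-variance trend (R 4.3.3), in a model of 3 groups, for the mean of CFA3D and CFA6D minus saline, two-sided. Benjamini-Hochberg adjustment ran over each table. A call needed both an unadjusted p under 0.05 and an absolute log2 difference that reached 1. Python 3.11.15 and pandas 2.3.3 did the rest. The fit was tested on simulated data. Named members were the 15 largest differences of at least 1 FPKM and the 10 widest gaps on each side, the members among the study's named and listed genes, the 5 largest noncoding ones on each side, gene sums with an adjusted p under 0.05, and the 5 largest transcripts on each side among non-overlapping ones with such a p. A few of these are not reported here. Other genes, and 16 further lists, were chosen after their values were seen. Members and lists were all chosen with earlier results of these data known. Library pools of mice are the replicates.

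Alternatives were other pseudocounts, filters, scalings and fits, single days, the most abundant transcript in place of the sum, and leaving out libraries. Replicate numbers 1 to 3 are shared by saline and CFA3D only, and the deviations of same-numbered libraries correlated at 0.0877, -0.078 and 0.0301, so they were not treated as pairs.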

Additional observations from a re-analysis of the deposited data

Results flagged for a closer look

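Among the 6 CFA libraries of each of 79 named features, 5 (6.33%) had a library whose gap to its neighbour passed Dixon's criterion, where chance gives about 1 in 20. CFA6D replicate 6 was high for *Cenpa* (3.337 FPKM) and for *Klhdc4* (8.844 FPKM). CFA6D replicate 4 was high for *Rtn4rl2* (11.64 FPKM). CFA3D replicate 3 was low for *Pln* (0.5412 FPKM), and CFA3D replicate 1 was the highest CFA library for *Traj15* (0.2119 FPKM).

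*Mir3101* differed between the days, with CFA6D above CFA3D by 5.065 on the log2 scale (adjusted p in limma 5.85e-05). No saline library of day 6 was analysed here, so day and treatment cannot be told apart for it. Its locus is much shorter than a kilobase, so its values rest on few reads.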

How the results depend on the processing

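Results of the 3 tables are given in the order mRNA, lncRNA and other noncoding gene sums. The calls, 47, 42 and 155, became 6, 1 and 1 with a pseudocount of 1, 17, 4 and 7 with a mean of at least 1 FPKM, and 1319, 232 and 409 with no fold change minimum. For mRNA they became 77 with a pseudocount of 0.01 and 137 with the most abundant transcript, and with CFA6D alone 96 for mRNA and 71 for lncRNA. Without saline replicate 3 and CFA6D replicate 6 together there were 144 mRNA and 239 other noncoding calls. The non-overlapping gene sums, 625, 103 and 188, became 1471, 347 and 667 with CFA3D alone, 2603, 535 and 855 with CFA6D alone, and 1723, 388 and 722 without that pair of libraries. With a mean of at least 1 FPKM, 30 lncRNA and 69 other noncoding ones were left. Called transcripts, 1237, became 194 with a pseudocount of 1, 316 with a mean of at least 1 FPKM, 3848 with no fold change minimum and 2073 without the pair. Fewer samples make the rule easier to meet. The cause of the other changes was not tested.

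Leaving out 1 library at a time gave 30 to 105 mRNA calls, with 30 without CFA3D replicate 1, 82 and 105 without saline replicates 1 and 3, and 87 without CFA6D replicate 6. It gave 35 to 65 lncRNA calls (65 without saline replicate 1), 156 to 235 other noncoding calls (235 without saline replicate 3) and 1318 to 1963 called transcripts (1963 without saline replicate 3). Non-overlapping mRNA gene sums ranged from 712 to 2189, with 2189, 1207 and 1408 without saline replicates 1, 2 and 3 and 1003 without CFA3D replicate 3. For lncRNA the range was 137 to 335, with 320, 335 and 301 without saline replicates 1, 2 and 3 and 173 and 165 without CFA3D replicates 2 and 3. For other noncoding RNA it was 253 to 614, with 614, 554 and 595 without saline replicates 1, 2 and 3 and 290 without CFA3D replicate 1.

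With the most abundant transcript in place of the gene sum, the log2 fold change turned for *Ctbp1* (-0.655), *Isoc2b* (0.0344), *Muc2* (-0.135), *Npas2* (-0.0556) and *Ssc4d* (0.472). *Mir3101* was at -0.164 with CFA3D alone and passed an adjusted p of 0.05 under some alternatives only. A replicate block, which lets same-numbered libraries correlate, gave 41 mRNA, 43 lncRNA and 155 other noncoding calls and 1218 called transcripts, and no named feature changed its direction or its side of the threshold. A read pair per kilobase was worth 0.0237 to 0.0333 FPKM, so levels near 0.1 FPKM rest on few reads. At loci much shorter than a kilobase, some higher levels rest on few reads as well.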

Other observations

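Neutrophil granule genes were positive in 14 of 14 cases, with a median log2 fold change of 0.66, but no gene separated and none had an unadjusted p under 0.05. Their summed level was 62.82 to 141.3 FPKM in saline, 32.45 to 157.1 FPKM in 5 CFA libraries and 2970 FPKM in CFA6D replicate 6. Adipocyte genes were negative in 8 of 8 cases (median -2.12), with a summed level of 157.4 FPKM in saline replicate 2 and 8.097 to 15.39 FPKM in the other libraries.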
